A study of Saccharomyces cerevisiae with 61 samples.

Results

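The sulfur assimilation and sulfite export genes of budding yeast are 10 of the 5592 named genes on the arrays. They are SUL1, SUL2, MET3, MET14, MET16, MET5, MET10, MET6, SSU1 and FZF1, found by symbol among the array's probes, and each is measured by 1 probe. They were chosen by their roles in sulfur metabolism and by 2 measured values already known, a higher SSU1 and a lower MET6 level in cells given methyl methanesulfonate. Every value from wild-type cells in that agent is therefore given as a description, without a test. The same holds for SSU1 and MET6 in that agent in any strain, since the choice named no strain.

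Yeast takes up sulfate, activates it, reduces it to sulfite and then to sulfide, and builds sulfide into homocysteine, cysteine, methionine and S-adenosylmethionine. The permeases Sul1 and Sul2 bring sulfate in, ATP sulfurylase (MET3) and APS kinase (MET14) activate it, PAPS reductase (MET16) makes sulfite, and Met5 and Met10 are the 2 kinds of subunit of sulfite reductase. Met6 is the methionine synthase, Ssu1 is the plasma membrane pump that expels sulfite, and Fzf1 is the zinc finger factor that activates SSU1. The enzyme genes are classically repressed when methionine is plentiful, through Met4 and its partners.

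The study compared RNA from cells released from a mating pheromone arrest, on 61 two-colour arrays. The labels give the strain BY4741 for every culture. Its usual genotype carries a deletion of MET17, the enzyme that incorporates sulfide. Cells of rad53Δ, which lack the checkpoint kinase Rad53, received methyl methanesulfonate (MMS, an alkylating agent, 0.033%), hydroxyurea (HU, an inhibitor of ribonucleotide reductase, 0.2 M) or no agent, and were taken at 30 and 75 min. Wild-type cells received MMS, HU, camptothecin (CPT, a topoisomerase I poison, 50 µM) or no agent, and were taken at 30, 45, 60 and 75 min. Cells of galsicΔP nrm1Δ, which lack the transcriptional corepressor Nrm1, were taken untreated at 40 and 100 min, and their galsicΔP parent at 0, 40 and 100 min. Each of these conditions had 2 RNA extracts, and rad53Δ and wild type had 1 further untreated extract each at 0 min. The labels do not explain the galsicΔP allele, name no further allele of rad53Δ and give no medium. They do not say whether the 2 extracts came from separate cultures, so the spread between extracts may be technical. P-values rest on this spread pooled over all strains and times in 1 fit, and not on that of the compared strain alone.

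The arrays hold log ratios of 2 extracts, so levels were read as differences between extracts, on a log2 scale, and no absolute level can be given for any gene. In wild-type replicate 1 no array set 2 agents of one time side by side, and the agents were joined through the 0 min extract and the other times of the course. In wild-type replicate 2 all 16 arrays compared 2 agents at the same time. NRM1 was lower in galsicΔP nrm1Δ than in galsicΔP at log2 differences of -3.77, -3.28, -4.58 and -5.04 in the 4 pairs of matched time and loop (adjusted p = 5.9e-14, limma). Cells of rad53Δ and wild type shared no array, so the deletion of RAD53 could not be checked in this way. MET17 log ratios had an SD of 0.168 over the 15 rad53Δ arrays and 0.199 over the 36 wild-type arrays, against a median SD over all features of 0.325 and 0.326. Over the 10 galsicΔP arrays the SD of MET17 was 2.34 against a median of 0.596, so its signal moved there in strains labelled with a genotype that lacks the gene.

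SSU1, the sulfite pump, is given first because its level in MMS was among the values that chose the genes. In MMS in wild type it was above the untreated extract of the same time in all 8 pairs, by 4.43 and 4.08 at 30 min, 4.58 and 4.95 at 45 min, 4.62 and 4.55 at 60 min, and 4.73 and 4.63 at 75 min. The estimate was 4.57 ± 0.10 (SE), or 23.8-fold, and 3.79 with arrays scaled to equal spread. The 8 values spanned 4.08 to 4.95, with the lowest pairs at 30 min, and no pair overlapped with any pair of the other agents. Across all features, 58.2% passed an adjusted p of 0.05 in this comparison, which is given only as background since MMS in wild type chose the members.

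In HU, SSU1 rose by 1.17 ± 0.10 over the 4 times (2.24-fold, adjusted p = 5.2e-09 by limma over all 6249 features). The differences from untreated were 0.68 and -0.06 at 30 min, 0.97 and 1.33 at 45 min, 1.36 and 1.101 at 60 min, and 1.98 and 1.97 at 75 min. At 30 min the 2 replicates lay on either side of 0, and from 45 min every HU extract was above its untreated partner. The rise was larger at 75 min than at 30 min by 1.67 ± 0.28 (adjusted p = 0.000496, where 8.07% of features passed, and 8.5e-06 in a fit holding array error and extract error together). It was 2.03 without wild-type replicate 1, and the call was lost without replicate 2 (1.30, adjusted p = 0.11) and with arrays scaled to equal spread (1.45, adjusted p = 0.30). P-values of this fit were too small for HU and CPT in wild type on simulated data. In the fit with both errors SSU1 rose in HU by 1.14 (adjusted p = 1.08e-10). In CPT, SSU1 was 0.07 ± 0.10 above untreated (adjusted p = 0.70), with 7 of the 8 pairs between -0.14 and 0.13 and 1 pair at 0.67, replicate 2 at 45 min.

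SSU1 in rad53Δ cells was higher in MMS by 3.59 ± 0.14, by 2.97 and 3.34 at 30 min and by 3.82 and 4.23 at 75 min, given without a test. All 4 pairs were positive, and the lowest was above the highest HU value of any strain. In HU the same strain gave 0.21 and -0.02 at 30 min and 0.28 and 0.59 at 75 min, an estimate of 0.26 ± 0.14 (adjusted p = 0.28). The HU response of SSU1 at the 2 shared times was lower in rad53Δ than in wild type by 0.88 ± 0.20 on the log2 scale (adjusted p = 0.016), in a test that 2.8% of features passed, and it was the only 1 of the 10 genes to pass. The fit with both errors gave -0.86 (adjusted p = 0.0027). At 75 min the rad53Δ values of 0.28 and 0.59 lay below both wild-type values of 1.98 and 1.97, whereas at 30 min the strains overlapped. These values are relative to untreated extracts, whose SSU1 level in replicate 1 fell from 0 min in wild type and stayed near it in rad53Δ. Each of these courses is read against the single 0 min extract of its own strain, and the strains shared no array. What the untreated courses add to the strain difference in HU was not tested. This call was lost when either rad53Δ replicate was left out (adjusted p = 0.17 and 0.19), without wild-type replicate 1 (0.19), and when arrays were scaled to equal spread (0.74), with estimates between -0.62 and -0.89 in those fits. In MMS the rad53Δ value was 0.87 below that of wild type at the shared times, given without a test. In order, the SSU1 estimates were 4.57 for MMS in wild type, 3.59 for MMS in rad53Δ, 1.17 for HU in wild type, 0.26 for HU in rad53Δ and 0.07 for CPT in wild type, and the last 2 lay within each other's spread over pairs.

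**Figure D1:**
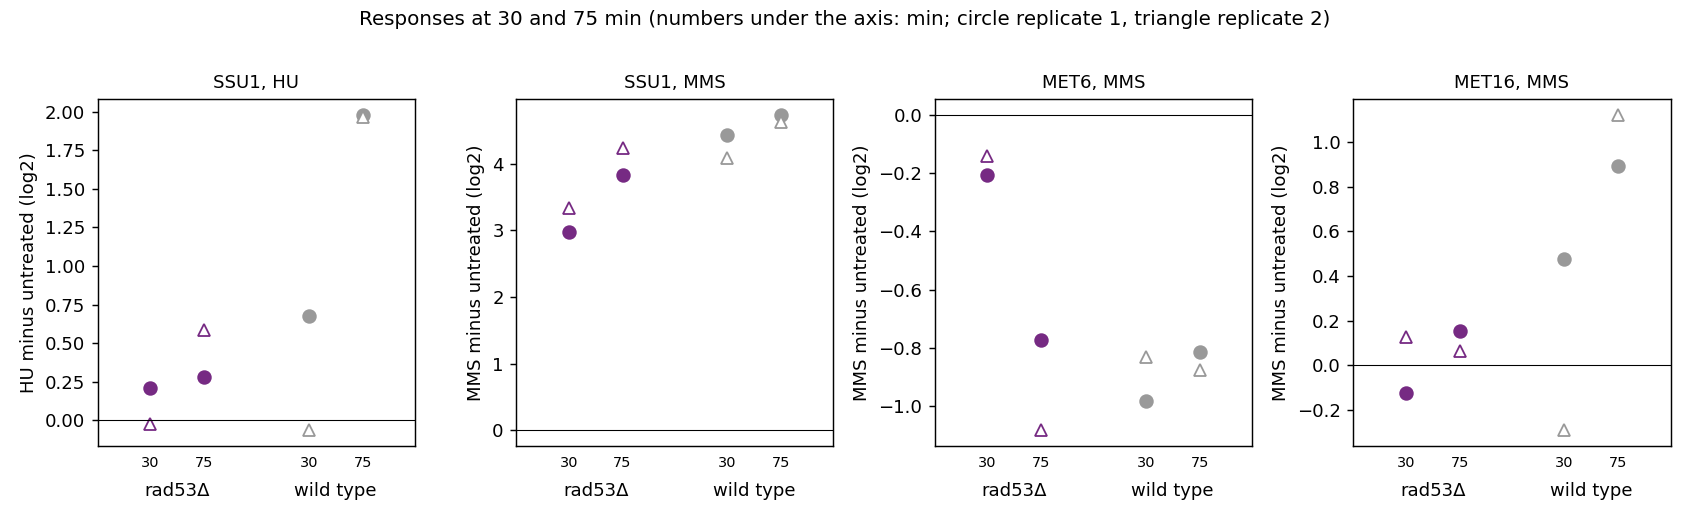
Difference from untreated (log2, vertical axis) for SSU1 in HU and for SSU1, MET6 and MET16 in MMS, with rad53Δ left of wild type, each at 30 and 75 min; filled circles are replicate 1 and open triangles replicate 2. SSU1 in HU at 75 min was 0.28 and 0.59 in rad53Δ, against 1.98 and 1.97 in wild type, and MET16 in MMS stayed between -0.12 and 0.16 in rad53Δ.

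In rad53Δ cells given MMS, MET6, the methionine synthase, was -0.21 and -0.14 at 30 min and -0.77 and -1.08 at 75 min. The estimate over both times was -0.55 ± 0.20, and at 75 min alone MET6 was lower by 0.93 ± 0.29, both given without a test. Without 1 or the other rad53Δ replicate the 75 min value was -1.08 and -0.77. In wild-type cells MET6 was lower in MMS, by 0.91 ± 0.14 or to 0.533 of the untreated level, and stood at -0.70 with arrays scaled to equal spread. The 8 differences were -0.98 and -0.83 at 30 min, -1.22 and -1.18 at 45 min, -0.66 and -0.71 at 60 min, and -0.81 and -0.88 at 75 min. The replicates of each time lay close together, and every pair was negative. In HU the MET6 estimate was 0.12 ± 0.14 (adjusted p = 0.57), with pairs from -0.39 to 0.74, and in CPT it was -0.06 ± 0.14 (adjusted p = 0.83).

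MET16, PAPS reductase, was 0.05 ± 0.13 in rad53Δ cells in MMS (adjusted p = 0.86), with all 4 pairs between -0.12 and 0.16. In wild-type cells in MMS it stood at 0.67 ± 0.09. Its values were 0.48 and -0.29 at 30 min, 0.33 and 0.83 at 45 min, 1.22 and 0.77 at 60 min, and 0.90 and 1.12 at 75 min, so that the replicates disagreed in sign at 30 min and were both above 0 later. In HU in wild type it was 0.08 ± 0.09 (adjusted p = 0.55) and in CPT -0.22 ± 0.09 (adjusted p = 0.14).

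The 2 sulfate permease genes gave different values in the 2 wild-type replicates. SUL1 passed the test in HU at 0.24 ± 0.07 (adjusted p = 0.0084), with 0.12, 0.30, 0.60 and 0.61 in replicate 1 over the 4 times and 0.01, 0.03, 0.05 and 0.18 in replicate 2. All 8 pairs were above 0, but replicate 2 stayed near 0, and the SUL1 call was lost in 6 of 11 other fits, among them the fit without wild-type replicate 1 and not that without replicate 2. In the fit with both errors SUL1 was 0.13 (adjusted p = 0.25). SUL2 was 0.25 ± 0.14 in HU (adjusted p = 0.17). Its replicate 1 values were 0.22, 0.47, -0.45 and -0.65, and its replicate 2 values were 0.13, 1.01, 0.46 and 0.79. The same split appeared for SUL2 in MMS (-0.07, 0.28, -0.46 and -0.81 in replicate 1 against 0.24, 0.98, 0.88 and 0.83 in replicate 2) and in CPT (-0.11, -0.42, -1.45 and -1.18 against 0.28, 0.40, -0.26 and -0.03). All 3 series share the untreated extracts of their replicate. In the fit with both errors SUL2 passed in HU at 0.45 (adjusted p = 0.0058). In MMS SUL1 stood at 0.27 ± 0.07, with all 8 pairs between 0.07 and 0.45. In rad53Δ cells SUL1 was -0.00 ± 0.10 in HU and 0.06 ± 0.10 in MMS, and SUL2 was 0.00 ± 0.19 and -0.11 ± 0.19. SUL1 and SUL2 are related in sequence, and how far their probes are specific was not tested.

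Among the activation and reduction genes, 1 passed in HU. MET5, a sulfite reductase subunit, fell in HU by 0.30 ± 0.08 (adjusted p = 0.0062), with -0.14, -0.44, -0.14 and -0.25 in replicate 1 and -0.72, -0.37, -0.34 and 0.03 in replicate 2. MET5 was also at -0.31 ± 0.08 in MMS, with every value negative at 30 and 45 min and values between -0.21 and 0.05 at 60 and 75 min. The HU call of MET5 was lost without wild-type replicate 2 (-0.24, adjusted p = 0.11) and held in the fit with both errors (-0.32, adjusted p = 0.0047). MET10, the other sulfite reductase subunit, was 0.10 ± 0.07 in HU and 0.05 ± 0.07 in MMS. In rad53Δ cells MET5 was 0.12 ± 0.11 in HU and -0.21 ± 0.11 in MMS, neither past the threshold. MET14 was -0.04 ± 0.09 in HU and 0.02 ± 0.09 in MMS. MET3 was 0.10 ± 0.18 in HU and -0.23 ± 0.18 in MMS, and at 45 min in MMS its replicates stood at -1.11 and 0.15. In CPT MET3 was 0.29 ± 0.18 (adjusted p = 0.33), with pairs from -0.34 to 1.49, and MET10, MET14 and MET5 were -0.18, -0.11 and -0.11. FZF1, whose product activates SSU1, was 0.19 ± 0.07 in MMS, with values from -0.15 to 0.44, and -0.12 ± 0.07 in HU (adjusted p = 0.19). In rad53Δ cells FZF1 was 0.24 ± 0.09 in MMS (adjusted p = 0.098), at 0.27 and 0.10 at 30 min and 0.16 and 0.42 at 75 min. No wild-type FZF1 pair in MMS, HU or CPT lay further than 0.46 from 0.

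In counts, 2 of the 10 genes rose in HU (SSU1 and SUL1), 1 fell (MET5) and 7 did not pass, where 33.1% of all features passed, 15.8% upward and 17.3% downward. The median of the 10 was 0.10, beside a median of -0.00 over all features. In CPT 0 of the 10 passed by limma after adjustment, where 6.02% of features did. At an unadjusted p under 0.05, 4 of the 10 and 24.7% of features were below it in CPT. Without wild-type replicate 2, which leaves 1 extract per agent and time, MET3, MET10, MET16 and SUL2 stood at 0.56, -0.31, -0.33 and -0.79 in CPT. In the fit with both errors they were 0.15, -0.11, -0.15 and -0.09, and none passed. In rad53Δ cells given HU 0 of the 10 passed, where 7.15% of features did by limma after adjustment. At an unadjusted p under 0.05, 1 of the 10 and 21.7% of features were below it in that comparison. In rad53Δ cells given MMS none of the members tested passed, with SSU1 and MET6 given there without a test. There 13.4% of features passed, 8.59% upward and 4.78% downward. HU, CPT and MMS responses share untreated extracts, so they are set side by side and no overlap between them is given.

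**Figure D2:**
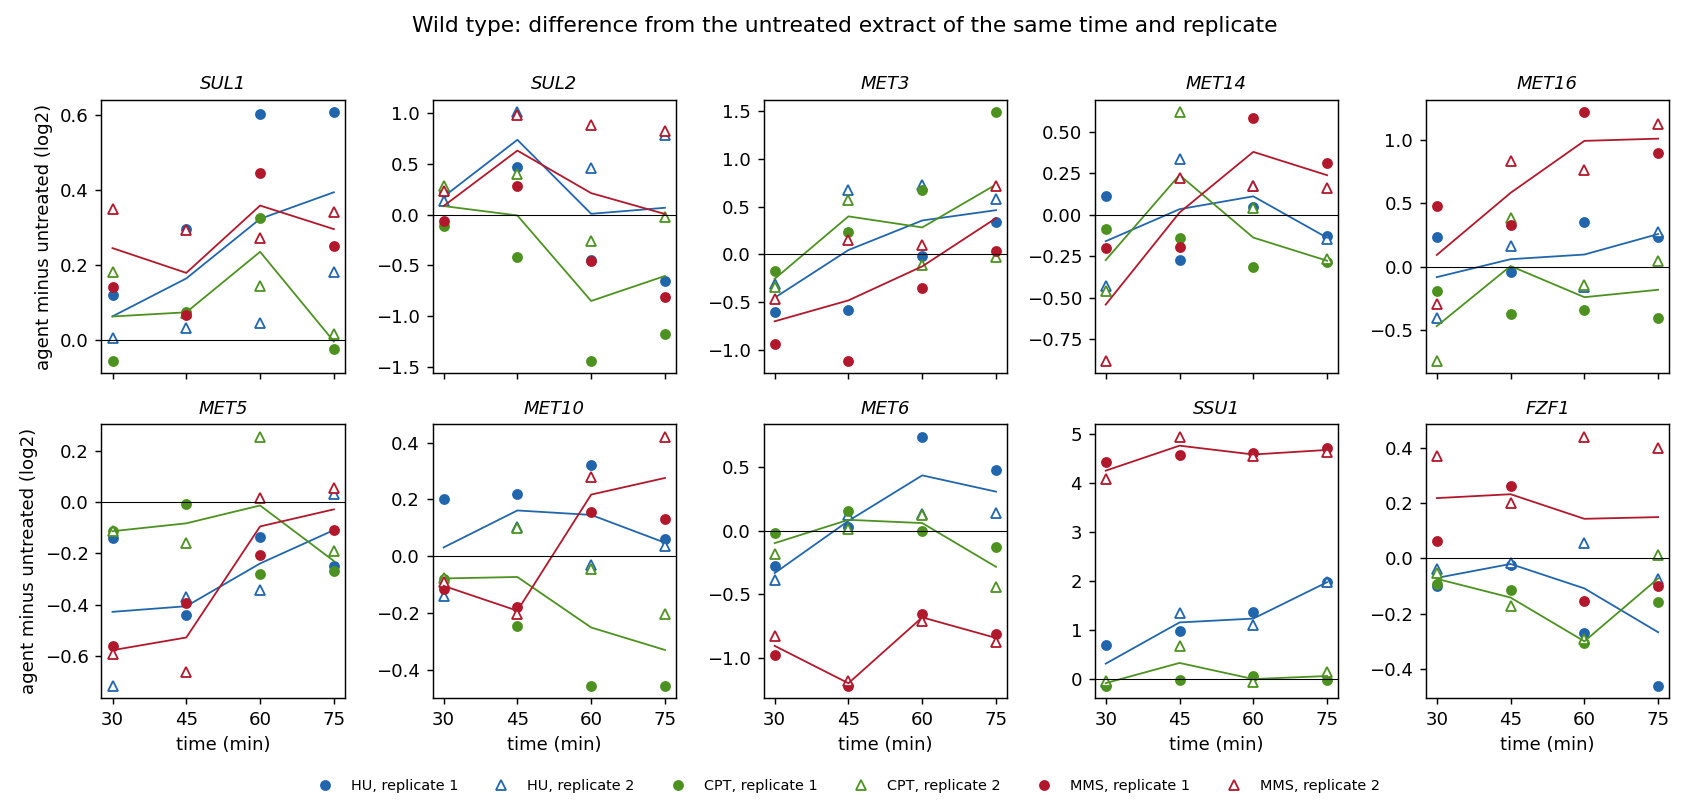
Difference between each agent and the untreated extract of the same time and replicate in wild type (log2, vertical axis, with its own scale in each panel) against time in min, for the 10 genes; filled circles are replicate 1, open triangles replicate 2 and lines the mean of both. SSU1 lies between 4.08 and 4.95 in MMS and climbs to 1.98 and 1.97 in HU, MET6 is negative at every time in MMS, and the 2 replicates of SUL2 separate at 60 and 75 min in every agent.

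Over the 32 wild-type extracts at 30 to 75 min, with each time and replicate set to its own mean, the feature most like SSU1 was FMP23, a mitochondrial protein gene, with a Pearson r of 0.987. YHB1, the flavohemoglobin that detoxifies nitric oxide, followed at 0.984, and MCH4 (a monocarboxylate transporter homologue), ARO5 and ATR1 (a multidrug efflux pump) had 0.980, 0.978 and 0.975. Their MMS values in wild type ran from 1.61 for MCH4 to 3.87 for YHB1. For MET6 the likest were RIP1 (0.932), SAM2 (0.926), ERG25 (0.924), QCR2 (0.913) and ERG7 (0.910). RIP1 and QCR2 are subunits of the mitochondrial cytochrome bc1 complex, SAM2 is an S-adenosylmethionine synthetase and ERG25 and ERG7 act in ergosterol synthesis. Within the 10 genes, SSU1 had an r of 0.83 with MET16, -0.80 with MET6 and 0.63 with FZF1. These correlations share arrays and the MMS extracts, and describe these extracts only.

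The 42 other sulfur genes were read in 5 lists, chosen with earlier results of these data known, so counts within them are a description. The 4 further genes known to be induced through Fzf1 are YHB1, DDI2 and DDI3 (cyanamide hydratases) and YNR064C (an epoxide hydrolase). In rad53Δ cells given MMS all 4 rose, where 8.59% of all features did, and they also rose in each of the 11 other fits. Their median was 2.59 beside -0.00 over all features, with values of 3.50 for YHB1, 2.59 for DDI2 and DDI3 and 1.95 for YNR064C. In wild type the same genes stood at 3.87, 2.71, 2.57 and 1.09 in MMS. In HU in wild type YHB1 rose by 1.13 ± 0.15 (1.05 with both errors, adjusted p = 9e-07), while DDI2 was 0.16 ± 0.18, DDI3 0.16 ± 0.17 and YNR064C 0.03 ± 0.08. DDI2 and DDI3 are near-identical copies, so each of their values may hold signal of the other.

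Of the 21 other enzymes of the pathway, 3 rose and 0 fell in wild type in HU, where 15.8% and 17.3% of all features did, namely MET2 (homoserine acetyltransferase, 0.47), SAM2 (0.36) and MHT1 (a homocysteine methyltransferase, 0.24). That count ran from 1 to 5 over the other fits. With both errors MET2 was 0.50, SAM2 0.32 and MHT1 0.22, each still past the threshold, and SAM1 fell by 0.31 (adjusted p = 0.0086). In rad53Δ cells 1 of the 21 passed in HU, MET2 at 0.62 ± 0.13, where 7.15% of all features passed. This count was 0 without either rad53Δ replicate and up to 5 in the other fits. In MMS in rad53Δ 3 rose (MET2 at 0.50, HOM3, aspartate kinase, at 0.38 and MET22, the PAP phosphatase, at 0.34), where 8.59% of all features rose. Another 3 fell there, SAM1 by 0.69, SAH1 (adenosylhomocysteinase) by 0.58 and SAM2 by 0.52, where 4.78% of all features fell. Without rad53Δ replicate 1 only 1 of the 21 passed, and without replicate 2 none passed. In MMS in wild type HOM3 stood at 1.38 and STR3 (cystathionine lyase) at 1.24, and SAM1, SAM2 and SAH1 at -0.96, -0.80 and -0.75. SAM1 and SAM2 are close copies and their signals may mix. Among the 6 regulators, MET28, a cofactor of Met4, rose in HU by 0.41 ± 0.05 (0.44 with both errors, adjusted p = 1.78e-06), and MET4 itself was -0.02 ± 0.07. Of the 8 transporters of methionine and related compounds, 1 passed in HU, where 33.1% of all features did, and 1 in CPT, where 6.02% did. In HU it was MUP3 (0.24 ± 0.07, and 0.24 with both errors, adjusted p = 0.021). In CPT it was YCT1, which fell by 0.26 ± 0.07, while with both errors YCT1 was -0.19 (adjusted p = 0.31). The 3 genes for other sulfur sources, JLP1, BDS1 and OPT1, did not pass in HU or CPT in wild type or in HU or MMS in rad53Δ. OPT1 still lay below untreated in all 4 rad53Δ pairs in HU, from -0.78 to -0.37, and in all 4 in MMS, from -0.66 to -0.17.

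**Figure D3:**
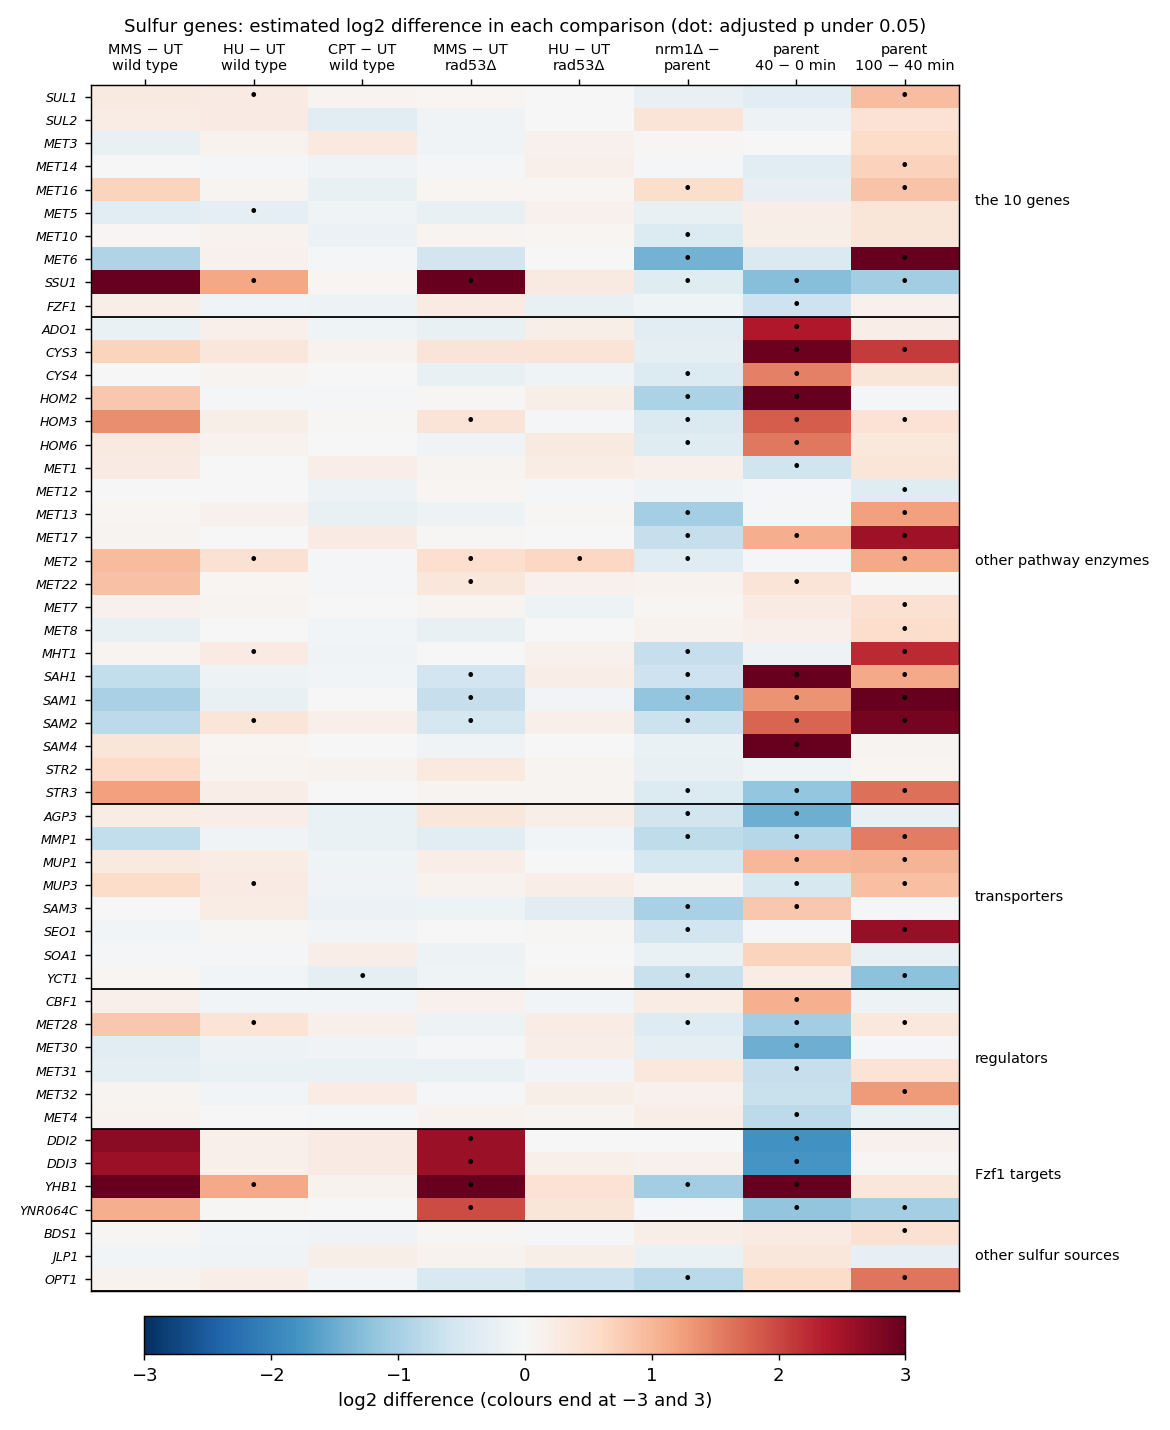
Estimated log2 difference (colour, ending at -3 and 3) of the 10 genes and the 42 other sulfur genes (rows, by list) in 8 comparisons (columns); a dot marks an adjusted p under 0.05 and none is drawn for MMS in wild type. The dot of SSU1 for MMS in rad53Δ is not read as a test, since SSU1 in MMS was among the values that chose the genes. SSU1, YHB1, DDI2 and DDI3 are deep red in both MMS columns, and the 3 columns of the galsicΔP strains hold most of the dots of the pathway enzymes.

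In galsicΔP cells lacking Nrm1, MET6 was the most changed of the 10 genes. It fell by 1.41 ± 0.20 relative to the galsicΔP parent (to 0.376 of the parent level, adjusted p = 1.2e-05), by 1.59 and 0.46 at 40 min and by 2.34 and 1.26 at 100 min in the 2 array loops. All 4 pairs were below 0 and the larger difference came from loop 1 at both times. MET10 fell by 0.40 ± 0.10 (adjusted p = 0.0042), with -0.38 and -0.13 at 40 min and -0.62 and -0.47 at 100 min. MET16 rose by 0.53 ± 0.13 (adjusted p = 0.0031), with 0.77 and 0.81 at 40 min and 0.35 and 0.19 at 100 min. SSU1 fell by 0.37 ± 0.14 (adjusted p = 0.043). Its pairs were -0.54 and -1.12 at 40 min and -0.12 and 0.29 at 100 min, so only the 40 min pairs were both below 0 by over 0.5 (-0.83 ± 0.20 there, adjusted p = 0.0029, where 24.6% of features passed, and 0.08 ± 0.20 at 100 min, adjusted p = 0.87). The test of that time difference, in which 2.77% of features passed, gave 0.92 ± 0.28 (adjusted p = 0.080).

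The SSU1 call at 40 min was lost with scaled arrays (adjusted p = 0.23), without loop 2 (-0.54, adjusted p = 0.21) and in the galsicΔP arrays alone (0.063). The SSU1 call over both times was lost when arrays were scaled, in the galsicΔP arrays alone and without either loop, with estimates from -0.42 to -0.23. Without loop 1 the MET10 and MET16 calls were also lost (adjusted p = 0.16 and 0.072), and MET6 kept its call at -0.86. SUL2 was positive in all 4 pairs, from 0.30 to 0.48, at 0.39 ± 0.19 (adjusted p = 0.12). SUL1 was 0.16 and -0.14 at 40 min and -0.45 and -0.44 at 100 min, and at 100 min alone it fell by 0.44 ± 0.14 (adjusted p = 0.037, where 9.94% of features passed), a call lost without either loop (adjusted p = 0.31 and 0.23) and in the galsicΔP arrays alone (0.12). MET3, MET14, MET5 and FZF1 did not pass, with estimates between -0.22 and 0.04. In all, 1 of the 10 rose and 3 fell, where 31.6% of features passed, 14.5% upward and 17.2% downward.

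Of the 21 other pathway enzymes 12 fell and 0 rose in galsicΔP nrm1Δ, where 17.2% of all features fell and 14.5% rose. Their median was -0.37 beside -0.02 over all features. The lowest were SAM1 (-1.20), MET13 (methylenetetrahydrofolate reductase, -1.01) and HOM2 (aspartate semialdehyde dehydrogenase, -0.94). The count was 4 without loop 1 and 4 in the galsicΔP arrays alone, in each case all downward. Of the 8 transporters 5 fell, among them SAM3 (-0.97) and MMP1 (-0.76), the permeases of S-adenosylmethionine and S-methylmethionine. Among regulators 1 of 6 passed, MET28, which fell by 0.38 ± 0.07. YHB1 fell by 1.04 ± 0.21, a call lost with scaled arrays and without loop 1, the other Fzf1-induced genes were between -0.05 and 0.14, and OPT1, an oligopeptide and glutathione transporter, fell by 0.82 ± 0.21.

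**Figure D4:**
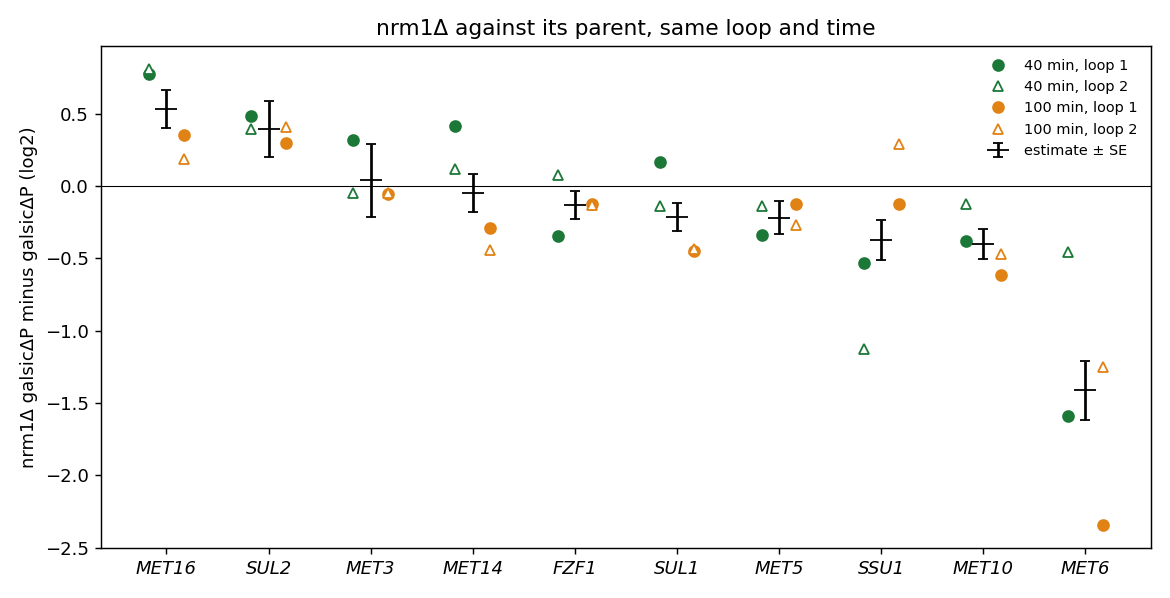
Difference of galsicΔP nrm1Δ from galsicΔP in the same loop and at the same time (log2, vertical axis) for each of the 10 genes; green is 40 min and orange 100 min, filled circles are loop 1 and open triangles loop 2, and black bars are the estimate ± SE. MET6 is below 0 in all 4 pairs, from -2.34 to -0.46, MET16 and SUL2 are above 0 in all 4, and SSU1 differs between the 2 times.

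The galsicΔP parent itself showed the widest range of MET6 in the series. At 100 min MET6 was 3.43 ± 0.29 above its level at 40 min (10.8-fold, adjusted p = 2.3e-09). In loop 2 the difference was 3.19, and in loop 1 MET6 stood at 2.73 at 100 min and -0.93 at 40 min, relative to the first 0 min extract. SUL1 rose by 0.93 ± 0.14 between the same times (adjusted p = 1.1e-05), MET16 by 0.85 ± 0.18 (adjusted p = 0.0011) and MET14 by 0.68 ± 0.18 (adjusted p = 0.0066). SSU1 fell by 1.05 ± 0.20 (adjusted p = 0.00022), by 0.65 in loop 1 and 1.46 in loop 2. The 5 others were between 0.12 for FZF1 and 0.56 for MET3. Thus 4 of the 10 rose and 1 fell, where 27.9% of features passed, 13.5% upward and 14.4% downward, and 9 of the 10 estimates were positive. Without loop 2 only MET6 and SUL1 passed, and the SSU1 value was -0.65 (adjusted p = 0.16).

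Among the 21 other enzymes 12 rose between 40 and 100 min in the parent and 1 fell, MET12 (-0.37). Of all features 13.5% rose and 14.4% fell there. SAM1 rose by 3.01, SAM2 by 2.88, MET17 by 2.54 and MHT1 by 2.25. The transporter gene SEO1 rose by 2.61 and MMP1 by 1.54, YCT1 fell by 1.23, and MET32, a DNA-binding partner of Met4, rose by 1.27. The median of the 21 was 0.45 beside 0.00 over all features.

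At 40 min against 0 min the parent's SSU1 fell by 1.27 ± 0.21 (adjusted p = 1.2e-05) and FZF1 fell by 0.63 ± 0.14 (adjusted p = 0.00046). These 2 of the 10 passed, where 57.3% of features did, 28.8% upward and 28.5% downward. The 40 min extract that shares a loop with the 0 min extracts stood at -1.77 for SSU1 and -0.62 for FZF1 relative to the first 0 min extract. The second 0 min extract stood at -0.56 and -0.09. The 0 min extracts differed more in MET6, where the second stood at -1.31. The fitted MET6 difference of 40 min from 0 min, which also draws on loop 2, was -0.44 ± 0.31 (adjusted p = 0.23). With arrays scaled to equal spread the SSU1 difference was -0.36 and did not pass (adjusted p = 0.68), and MET6 passed at -1.40. Of the 21 other enzymes 12 rose and 2 fell in this comparison, HOM2 by 4.56 and SAM4 (homocysteine methyltransferase) by 3.18 upward and STR3 by 1.16 downward. With scaled arrays these counts were 8 and 3. Among Fzf1-induced genes YHB1 rose by 5.70, and DDI2, DDI3 and YNR064C fell, at -1.82, -1.77 and -1.18. With scaled arrays none of these 3 passed.

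**Figure D5:**
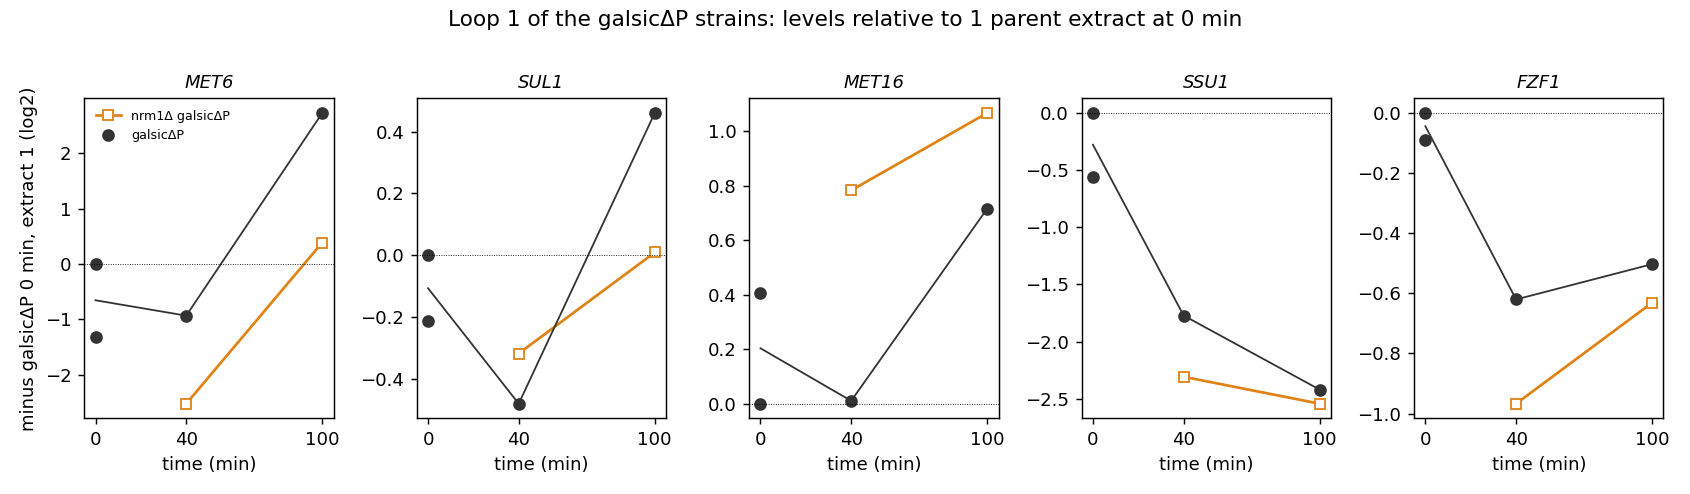
Level relative to the first galsicΔP 0 min extract in loop 1 (log2, vertical axis, own scale in each panel) against time in min; open orange squares are galsicΔP nrm1Δ, black points galsicΔP, with a line from the mean of its 2 extracts at 0 min. MET6 in the parent stands at -0.93 at 40 min and 2.73 at 100 min, SSU1 and FZF1 are lower at both later times than at 0 min, and MET6 in galsicΔP nrm1Δ reaches 0.39 at 100 min.

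The courses after release could be read against 0 min in replicate 1 of wild type and rad53Δ, where each level has no replicate. In untreated rad53Δ cells SSU1 was -0.01 at 30 min and 0.02 at 75 min. In untreated wild type SSU1 was -0.67, -0.74, -0.79 and -0.86 at 30, 45, 60 and 75 min, and with HU it was 0.00, 0.22, 0.56 and 1.12. The HU values of replicate 1 in wild type thus ended above the arrest level, and the CPT values, from -0.88 to -0.74, stayed with the untreated ones. SUL1 in untreated rad53Δ was -0.08 and -0.10, against -0.86, -1.05, -1.30 and -1.16 in untreated wild type. MET16 was -0.08 and -0.33 in untreated rad53Δ, against -1.23, -0.82, -1.27 and -1.19 in untreated wild type. MET14 was lower than at 0 min in both strains, at -0.71 and -0.90 in untreated rad53Δ and between -1.57 and -0.84 in untreated wild type. MET6 in untreated rad53Δ was 0.01 and -0.72, and in untreated wild type -0.26, 0.07, -0.94 and -1.05.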

How the data were processed

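The deposited series matrix holds, per the labels, ratios of Cy5 over Cy3 from 61 two-colour arrays, which the authors processed with limma (version not given), per the submitters' processing notes. The deposited values were taken as log2, from their range and medians near 0. How background was corrected and arrays normalized, and the log base, is not given in the sources used here, and with no intensities neither depth nor background can be assessed. Of 6266 probes, 5609 have 1 symbol and 657 none, and probes of 1 gene were averaged to 6249 features. Labels clashed on 9 arrays: 2 titles say mms.0 where the source says untreated 0 min, 6 arrays of both galsicΔP strains carry 1 genotype entry, and 1 rad53Δ array has another time in its source names. Source labels settled the first 2 kinds, title and time the third.

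Array ratios were turned into levels of 56 extracts by least squares with a dye term in each strain set. Levels of 54 extracts were fitted with limma 3.58.1 (R 4.3.3) on groups, with blocks for replicate and time, or for loop in the galsicΔP strains (14 blocks, 20 residual degrees of freedom). All strains shared 1 estimate of the spread for each feature, and the times of a replicate were treated as separate blocks. The galsicΔP strains alone leave 4 residual degrees of freedom. Tests were 2-sided with Benjamini-Hochberg adjustment over all features, with a threshold of 0.05. The number of arrays limits the precision. In replicate 2 of rad53Δ and wild type the extracts of 1 time were hybridised together, and so were those of each galsicΔP loop. In replicate 1 the agents of 1 time were joined only through the 0 min extract and other times, and the block there rests on the labelled replicate and time.

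On simulated data this fit recovered known changes but gave p-values that were too small for HU and CPT in wild type. The simulation took the ratio of array to extract variance from these files and set the same error size for all features and strain sets. A fit holding both errors was therefore added after seeing the data and is given beside the HU and CPT calls named. It kept its nominal rate in that simulation, which drew errors under this fit's own model and at its estimated variance ratio. The simulation therefore cannot show how the fit with both errors behaves on the real arrays. In that fit the array variance was 3 times the extract variance. The members and the lists were chosen with earlier results of these data known. Genes named are the members, the genes of the lists by size among those that passed, and 5 features most like SSU1 and 5 most like MET6. Symbols come from the platform annotation and RefSeq. No sequence was analysed here. Figures were drawn with matplotlib 3.10.9.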

Additional observations from a re-analysis of the deposited data

Results flagged for a closer look

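The HU response of SSU1 differed between strains: it was lower in rad53Δ than in wild type by a log2 difference of -0.88 (adjusted p = 0.016, limma), with 4 rad53Δ pairs between -0.02 and 0.59 and 4 wild-type pairs of the same times between -0.06 and 1.98. This call was lost without either rad53Δ replicate, without wild-type replicate 1 and with scaled arrays. In replicate 1 the untreated SSU1 level fell from 0 min in wild type and stayed near it in rad53Δ, and what this adds to the difference was not tested.

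The HU response of SSU1 in wild type differed between times, being higher at 75 min than at 30 min by 1.67 (adjusted p = 0.000496, limma), in both replicates, by 1.30 in replicate 1 and 2.03 in replicate 2. This call was lost with scaled arrays (1.45, adjusted p = 0.30) and held in the fit with both errors (adjusted p = 8.5e-06).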

How the results depend on the processing

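Of 30 member calls in the listed comparisons and times, 9 held in every fit run. SSU1 for MMS in rad53Δ, over both times and at each time alone, is among the 30 and among the 9. MET6 for MMS in rad53Δ at the later time is among the 30 and not among the 9. These SSU1 and MET6 calls are not read as tests, since the values of both genes in MMS chose the genes. Counts of members for MMS in rad53Δ also include SSU1 and, where it passed, MET6. The fit without a replicate block and the fit with slide as a random block each called 2 of the 10 genes for the HU difference between strains. Each called 4 for the parent at 40 against 0 min, where the main counts were 1 and 2. For MMS in rad53Δ, FZF1 passed in both of these fits, at 0.25. Without the block, SUL1 in HU was 0.11 and SUL2 0.50. Scaled arrays gave 0 for the strain difference and 4 for the parent at 40 against 0 min, and the fit with both errors also gave 4 for the parent. The strain set alone called FZF1 (0.24) and MET5 (-0.21) for MMS in rad53Δ, and 1 gene for HU in rad53Δ against 0. With 1 replicate or loop left out, the counts ran from 0 to 4 for CPT, 0 to 1 for the strain difference, 1 to 3 for nrm1Δ and 2 to 4 for the parent at 100 against 40 min.

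For MMS in wild type MET3 turned positive (0.0103 without a replicate block, 0.01 with slide, 0.13 without replicate 1, -0.59 without replicate 2). MET14 turned negative without a block (-0.0252), with slide (-0.0246), with both errors (-0.018) and without replicate 1 (-0.0816, and 0.12 without replicate 2). MET10 (-0.0027 and 0.10) and SUL2 (-0.26 and 0.73) turned negative without replicate 2, the second value being that without replicate 1. SUL2 in HU at 75 min was 0.07, and -0.65 without replicate 2 and 0.79 without replicate 1. Removing the dye term changed nothing, because each extract was labelled equally with both dyes.

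Counts over all features moved by more than 1.5 times in several fits. They ran from 843 to 2392 for HU (2067), 5 to 1976 for CPT (376), 34 to 2003 for HU in rad53Δ (447), 168 to 2396 for MMS in rad53Δ (836), 16 to 749 for the strain difference (175), 1137 to 2946 for nrm1Δ (1977), 1994 to 4337 for the parent at 40 against 0 min (3583) and 526 to 2787 at 100 against 40 min (1745). One value per replicate could not be fitted for the strain difference or the parent's times, nor the 40 against 0 min comparison without loop 1. No intensities were used, so other background corrections and a filter on dim probes were not run, and the motif search was not run.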

Other observations

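In the 2 array loops of the galsicΔP strains MET17 log ratios ran from -2.87 to 4.15 over 10 arrays, and in wild type from -0.78 to 0.21 over 36 arrays. MET6 ran from -3.99 to 3.72 in the galsicΔP arrays and from -1.44 to 1.68 in wild type. Of the other genes deleted in the usual BY4741 genotype, LEU2 had an SD of 1.69 in the galsicΔP arrays, 0.446 in rad53Δ and 0.456 in wild type, HIS3 had 0.836, 0.127 and 0.125, and URA3 had 0.266, 0.317 and 0.439. The median SD of all features was 0.596, 0.325 and 0.326 in the same 3 sets of arrays. The part of the strain label in these values was not tested.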
